A study of Mus musculus with 6 samples.

Results

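The galectin genes read here are Lgals1, Lgals3, Lgals4, Lgals8 and Lgals9, together with Lgals3bp, which encodes a secreted glycoprotein bound by galectin-3 and is not itself a galectin. They are 6 of the 25361 genes listed for each library, taken by symbol, and were picked because Lgals3 and Lgals4 were known to move in opposite directions in this same comparison. Their differences between the groups are therefore given as a description, with no test. All 6 had enough counts to enter the fit, Lgals3 only through its treated counts.

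Hearts of wild-type male C57BL/6N mice, described as 12 weeks old, were profiled by 3′-end RNA sequencing. The 3 control mice were untreated, and the other 3 received ISO+L-NAME, the treatment that the series title calls a model of HFpEF, with hearts taken after 6 weeks. L-NAME blocks nitric oxide synthase; doses, routes and the part of the heart sampled are not stated in those labels. Libraries held between 2217974 and 2637364 counts. Markers of heart muscle were abundant throughout, at 55900 to 66400 CPM (counts scaled to library size) summed over 12 cardiomyocyte markers. Mitochondrially encoded genes took 53.6 to 56.7% of counts in controls and 45.5 to 47.8% in treated hearts. With these genes left out of the fit, 500 genes passed where 520 did with them, and each of the 6 galectin-related genes had the same log2 difference to 2 decimals. The library sizes behind CPM were adjusted by TMM, a scaling that sets the bulk of genes level between libraries.

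Galectins are lectins that bind galactose-containing sugar chains on glycoproteins and glycolipids. They are made in the cytosol and leave the cell without a signal peptide, so they act outside the cell, where they crosslink surface receptors and matrix proteins, and inside it, where they mark damaged lysosomes. Galectin-1 is a small lectin that pairs with itself. Galectin-3 joins a single sugar-binding domain to a flexible tail, and galectin-4, galectin-8 and galectin-9 carry a pair of different sugar-binding domains in a row. In the heart galectin-3 is known mainly as a product of macrophages, is studied in cardiac fibrosis and is measured in blood as a marker in heart failure. Galectin-4 is best known from the epithelium of the digestive tract.

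The sequences around the annotated starts of Lgals3 and Lgals4, the genes with the opposite differences, are shown for reference, since the 3′ reads themselves do not cover them. Both come from RefSeq on GRCm38.p6, a build other than the GRCm39 of the counts, and run from 250 bases before to 50 bases after the start, 5′ to 3′ on the plus strand. Capitals mark matches to the GC box GGGCGG on either strand.
Lgals3 (chr14:47373610-47373909): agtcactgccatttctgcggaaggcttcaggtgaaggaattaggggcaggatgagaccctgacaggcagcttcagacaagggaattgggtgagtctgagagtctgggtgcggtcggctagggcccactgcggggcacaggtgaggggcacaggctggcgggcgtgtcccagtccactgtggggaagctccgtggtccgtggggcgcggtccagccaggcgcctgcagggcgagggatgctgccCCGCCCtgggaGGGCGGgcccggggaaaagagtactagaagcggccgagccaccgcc
Lgals4 (chr7:28833544-28833843): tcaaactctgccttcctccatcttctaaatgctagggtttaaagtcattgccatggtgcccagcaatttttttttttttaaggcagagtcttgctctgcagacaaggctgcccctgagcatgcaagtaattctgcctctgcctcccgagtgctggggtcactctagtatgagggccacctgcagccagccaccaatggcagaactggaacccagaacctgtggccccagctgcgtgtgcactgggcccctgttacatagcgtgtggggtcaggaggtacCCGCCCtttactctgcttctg
The Lgals3 window was 67.0% G or C with 18 CpG steps, and the Lgals4 window 54.0% with 4, where the median over all 32851 windows of this length was 52.7% and 7. Lgals3 held 2 GC boxes, beginning 7 bases before and at base 5 after the start, on opposite strands and without overlap. Lgals4 held 1, at base 30 after the start. A GC box was present in 35.7% of all windows. Neither window held the AP-1 letters TGACTCA or the TATA letters TATAAA on either strand, which 5.20% and 13.6% of all windows did. RefSeq windows were found for 5 of the 6 genes, and none of the other 3 held any of the motifs searched. These matches describe letters only.

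Galectin-3 messages were scarce in control hearts and plain in every treated one. Lgals3 (ENSMUSG00000050335, chromosome 14, 47605208 to 47623617, plus strand, GRCm39) had 5, 2 and 5 counts in controls 1 to 3, and treated hearts 1 to 3 had 66, 40 and 34. On the CPM scale these were 2.28, 1.00 and 2.41 against 21.9, 15.7 and 13.2. The groups lay far apart, with the lowest treated heart well above the highest control, and the first treated heart the highest of all. The means were 1.90 ± 0.778 and 17.0 ± 4.49 CPM (SD, n = 3), a log2 difference of 3.13 ± 0.36 (SE), or 8.73-fold. Because the controls held only 12 counts between them, the size is loosely fixed: the ratio of pooled counts was 9.0 with a 95% exact interval of 4.99 to 17.8, which covers counting error only. Leaving out any 1 library gave log2 differences from 2.83 to 3.31.

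Galectin-4 went the other way. Lgals4 (ENSMUSG00000053964, chromosome 7, 28533279 to 28541133, plus strand) was counted 53, 53 and 66 times in the controls but 40, 21 and 11 times after treatment. In CPM the controls stood at 24.2, 26.5 and 31.8 and the treated hearts at 13.3, 8.26 and 4.27. Every treated heart was below every control, and the treated hearts differed widely among themselves. Their coefficient of variation was 52.5%, where counting alone at this depth would give 20.4%; in controls it was 14.1% against 13.2%. The means were 27.5 ± 3.88 and 8.61 ± 4.52 CPM (SD, n = 3), a log2 difference of -1.64 ± 0.27 (SE), or 3.11-fold lower in treated hearts. Without ISO+L-NAME 1, the treated heart nearest the controls, it was -2.12, and without ISO+L-NAME 3 it was -1.33.

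**Figure D1:**
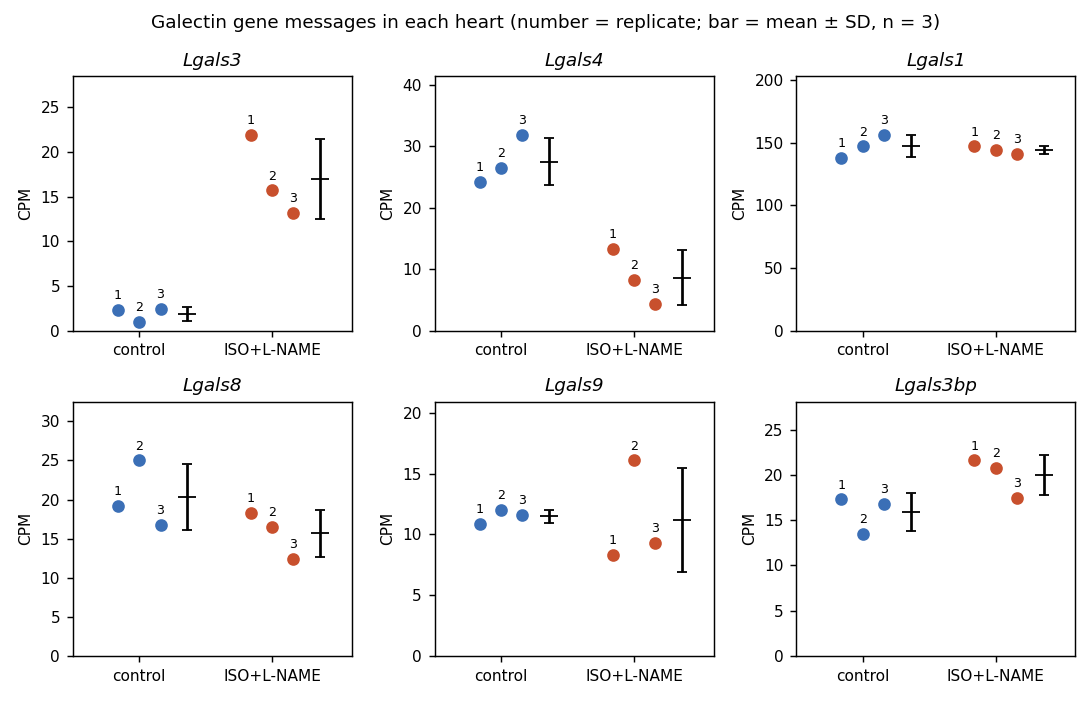
Messages of the 6 genes in each heart, in CPM on an axis from 0 for each gene, with controls in blue, ISO+L-NAME hearts in orange and the mean ± SD (n = 3) beside the points. Lgals3 ran from 13.2 to 21.9 CPM in treated hearts against 1.00 to 2.41 in controls, and Lgals4 from 4.27 to 13.3 against 24.2 to 31.8, while Lgals1 lay between 138 and 156 CPM in all hearts.

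The other galectins with paired sugar-binding domains showed small differences. Lgals8 encodes galectin-8, which recognises damaged vesicles in the cytosol and binds integrins outside the cell (ENSMUSG00000057554, chromosome 13, 12454296 to 12479825, minus strand). It stood at 19.2, 25.0 and 16.8 CPM in controls and 18.3, 16.5 and 12.4 in treated hearts, and the groups overlapped. The log2 difference was -0.36 ± 0.22 (SE). Its span overlaps Heatr1 on the opposite strand, a gene with 5 to 18 counts per library, and whether the counting used strand is not stated. In the GENCODE M21 transcripts the last 300 bases of Lgals8 also matched AC107765.2 over 296 bases at 91.2% identity, so some reads may be shared. AC107765.2 has no entry under that name among the genes counted. No other of the 6 genes had a match of over 120 bases to another gene's transcript. Lgals9 encodes galectin-9, a ligand of the immune receptor TIM-3 (ENSMUSG00000001123, chromosome 11, 78853800 to 78875772, minus strand). Each control gave 24 counts and the treated hearts 25, 41 and 24, or 10.9, 12.0 and 11.6 against 8.31, 16.1 and 9.32 CPM. A single treated heart, the second, lay above the controls and the others lay below them. The log2 difference was -0.05 ± 0.27 (SE), and -0.39 without that heart.

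Galectin-1 was level between the groups. Lgals1 (ENSMUSG00000068220, chromosome 15, 78810925 to 78814665, plus strand), whose product acts on muscle, vessel and immune cells, gave 303, 294 and 324 counts in control libraries and 442, 366 and 363 in treated ones. In CPM these were 138, 147 and 156 against 147, 144 and 141, with the treated values inside the control range. The log2 difference was -0.03 ± 0.11 (SE). Lgals3bp, the galectin-3 binding glycoprotein (ENSMUSG00000033880, chromosome 11, 118283577 to 118292918, minus strand), stood at 17.3, 13.5 and 16.8 CPM in controls and 21.6, 20.8 and 17.5 in treated hearts. The groups just failed to overlap, the lowest treated value being next to the highest control. The log2 difference was 0.33 ± 0.20 (SE).

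In counts, 1 of the 6 genes was past an edgeR adjusted p of 0.05 on the higher side, where 3.41% of all 8531 tested genes were, and 1 on the lower side, where 2.68% were; the groups did not overlap in CPM for 2 higher and 1 lower, against 11.4% and 11.3% of tested genes. The genes were picked on this contrast, so nothing is read from these shares. Over all genes 520 passed (6.10%), and 301 without control 1. The median log2 difference of the 6 was -0.04, and that of all tested genes -0.01.

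Only the differences of Lgals3 and Lgals4 were large beside a change of scaling. With total counts alone, all libraries taken as equal in content, the median of all genes moved up by 0.30 on the log2 scale. Lgals3 then stood at 3.43 ± 0.37 and Lgals4 at -1.33 ± 0.29 (SE), whereas Lgals1 and Lgals9 changed sign, to 0.27 ± 0.11 and 0.26 ± 0.27. Lgals8 came to -0.05 ± 0.22 and Lgals3bp to 0.63 ± 0.21. Measured from the median of all genes, the 6 values moved by at most 0.00508 between the 2 scalings, which follows from the way scaling works. With RLE scaling, or with the library sizes implied by the authors' own scaled columns, the 6 values moved by at most 0.0097 from those given above.

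**Figure D2:**
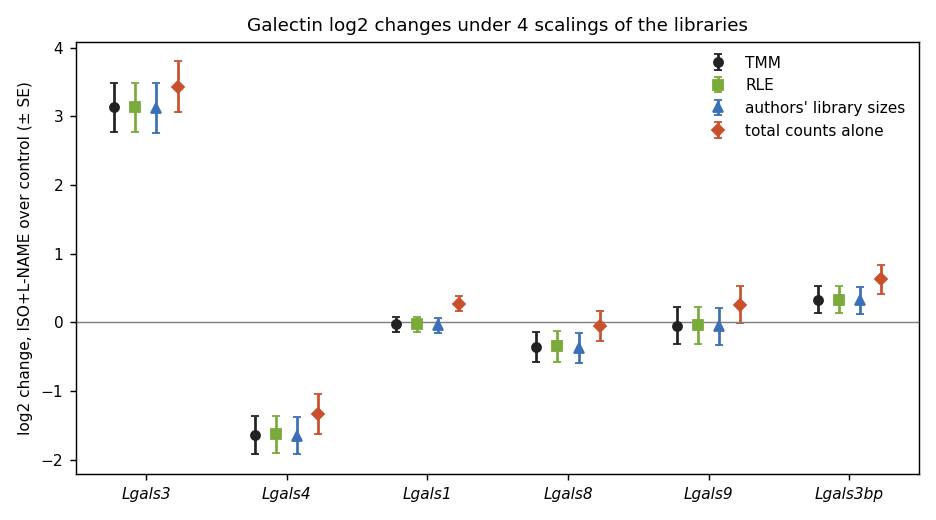
Log2 difference of ISO+L-NAME over control for the 6 genes with its SE, under TMM, RLE, the authors' library sizes and total counts alone (4 markers per gene). Total counts alone lift every gene by about the same amount, which leaves Lgals3 at 3.43 and Lgals4 at -1.33 and carries Lgals1 from -0.03 to 0.27.

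A view that needs no scaling is the make-up of the counts within each library. Over the 5 galectin genes the libraries held 423 to 454 counts in controls and 464 to 628 in treated hearts. Lgals3 made up 1.17, 0.473 and 1.10% of them in controls and 10.5, 7.84 and 7.33% in treated hearts. Lgals4 made up 12.4, 12.5 and 14.5% and then 6.37, 4.12 and 2.37%. In every control Lgals4 counts outnumbered Lgals3 counts, with 0.0377 to 0.0943 Lgals3 counts per Lgals4 count, and in every treated heart the order was the reverse, with 1.65 to 3.09. Lgals1 supplied 70.6% ± 0.979 of control galectin counts and 73.5% ± 4.19 of treated ones (SD, n = 3), and Lgals8 and Lgals9 overlapped between the groups. The summed CPM of the 5 genes came to 208 ± 12.2 without treatment and 196 ± 14.7 with it (SD, n = 3), and the groups overlapped. Because reads come from the 3′ end, longer messages do not yield more of them.

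**Figure D3:**
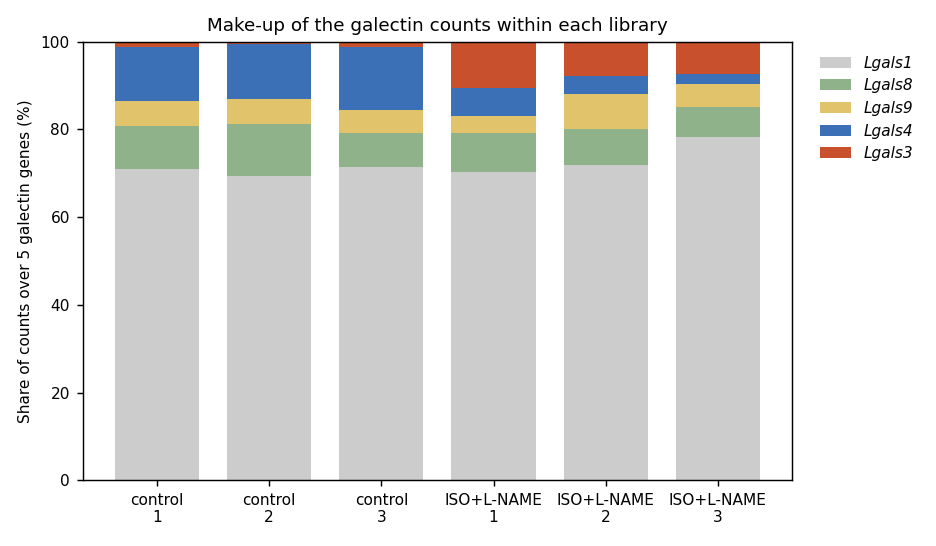
Share of each library's counts over 5 galectin genes that came from each gene, in percent, 1 bar per heart. Lgals1 fills 69.5 to 78.2% of every bar, while the Lgals3 segment is at most 1.17% in controls and at least 7.33% in treated hearts and the Lgals4 segment is smaller in every treated heart.

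Other members of the family added little. Of 6 further galectin-related genes, Lgals2, Lgals7, Lgals12 and Grifin had 0 counts in all libraries, and Lgals6 had no entry under that symbol. A count of 0 means not detected at this depth. The remaining gene, Lgalsl, encodes a galectin-related protein without known sugar binding. Its counts were 28, 28 and 18 in control libraries and 45, 46 and 64 in treated ones, or 11.8 ± 2.80 and 19.3 ± 5.06 CPM (SD, n = 3). The groups did not overlap, but the log2 difference of 0.70 ± 0.25 did not pass (edgeR adjusted p = 0.112); with total counts alone it did, at 1.00 ± 0.24 (0.00818).

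Among 36 genes for glycoproteins that galectins bind, 24 were tested, and 3 rose, 0 fell and 21 did not pass (edgeR, Benjamini-Hochberg over all tested genes; background 3.41% higher). At an unadjusted p under 0.05 there were 6 higher and 2 lower, and 0 were lower by DESeq2 or limma-voom. The list's median log2 difference was 0.09, and its summed level overlapped between the groups, at 1660 to 1780 CPM in controls and 1640 to 1800 in treated hearts, but not with total counts alone (1410 to 1610 and then 1780 to 2050). Cd44, the hyaluronan receptor bound by several galectins, was counted 17, 8 and 17 times in control libraries and 57, 44 and 70 times in treated ones, and rose by 1.65 ± 0.28 (edgeR adjusted p = 0.000547). Fn1, fibronectin, had 17, 12 and 19 counts and then 66, 37 and 54, and rose by 1.32 ± 0.25 (0.00211). In both, every treated heart was above every control. Slc3a2, the CD98 heavy chain that galectin-3 binds on macrophages, rose by 0.51 ± 0.13 (0.0262). That call was lost by DESeq2 (adjusted p = 0.114) and in edgeR without any 1 library other than ISO+L-NAME 3 (0.0629 to 0.0995), with log2 differences of 0.46 to 0.56 in those fits.

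The lysosomal membrane glycoproteins Lamp1 and Lamp2, classic ligands of galectin-3, did not pass, at log2 differences of 0.20 ± 0.10 and 0.26 ± 0.12 (edgeR adjusted p = 0.334 and 0.261). Itgb1, the integrin beta chain bound by galectin-1, galectin-3 and galectin-8, differed by 0.05 ± 0.10 (0.887). These 3 passed with total counts alone (0.00302, 0.00414 and 0.0337), as did 10 genes of the list in all. Mertk, an engulfment receptor that takes galectin-3 as a ligand, differed by 0.25 ± 0.26 (0.697). Trem2, a lipid-sensing macrophage receptor, was seen 1, 1 and 2 times in control libraries and 2, 6 and 5 times in treated ones, too few to test. The galectin-9 receptor gene Havcr2 was at 0 CPM in controls and 0.462 in treated hearts, also too few.

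Few single enzymes that build or cap the galactose chains passed the test, while their summed level was higher in every treated heart, at 399 to 415 CPM against 344 to 361 in controls. Abundant genes weigh most in such a sum, and St3gal5 alone went from a mean of 37.8 to 63.1 CPM. Of the tested genes 15 differed upward and 9 downward. Of 32 listed, 24 were tested, 1 rose, 0 fell and 23 did not pass. That is near the background of 3.41% higher and 2.68% lower over all tested genes. Those that did not pass had log2 differences from -0.64 to 0.74, and the list median was 0.24. At an unadjusted edgeR p under 0.05 there were 3 higher and 0 lower, and 0 were lower by DESeq2 or limma-voom. The gene that rose was St3gal5, the sialyltransferase that makes the ganglioside GM3 from lactosylceramide. Control hearts held 37.8 ± 5.89 CPM and treated hearts 63.1 ± 11.3 CPM (SD, n = 3), a log2 change of 0.73 ± 0.16 (edgeR adjusted p = 0.00561). Mgat5, the branching enzyme whose products galectin-3 favours, differed by -0.13 ± 0.32 (0.894), and St6gal1, whose sialic acid cap blocks the binding of most galectins, by -0.64 ± 0.38 (0.419). With total counts alone 6 genes of the list were higher.

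The machinery that meets galectins at damaged lysosomes gave a like picture, with few genes past the test. Its summed levels, 1600 to 1730 CPM in controls and 1770 to 1930 in treated hearts, did not overlap. Abundant genes weigh most in that sum, and Map1lc3a alone went from a mean of 332 to 435 CPM. Of the tested genes 17 differed upward and 11 downward. Of 30 listed genes 28 were tested, 1 rose, 0 fell and 27 did not pass, with a median of 0.07. That is near the background of 3.41% higher and 2.68% lower over all tested genes. At an unadjusted edgeR p under 0.05 there were 2 higher and 1 lower, and 0 were lower by DESeq2 or limma-voom. The gene that rose was Map1lc3a, of the LC3 family that coats autophagosomes, by 0.39 ± 0.11 (edgeR adjusted p = 0.0330). Its call was lost when any 1 library other than the first treated one was left out (0.0670 to 0.195), and under scaling by total counts 8 genes of the list were higher. Pdcd6ip, which encodes the galectin-3 partner ALIX, differed by 0.23 ± 0.17 and Chmp4b, of the membrane-sealing ESCRT machinery, by 0.20 ± 0.13 (0.557 and 0.460).

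**Figure D4:**
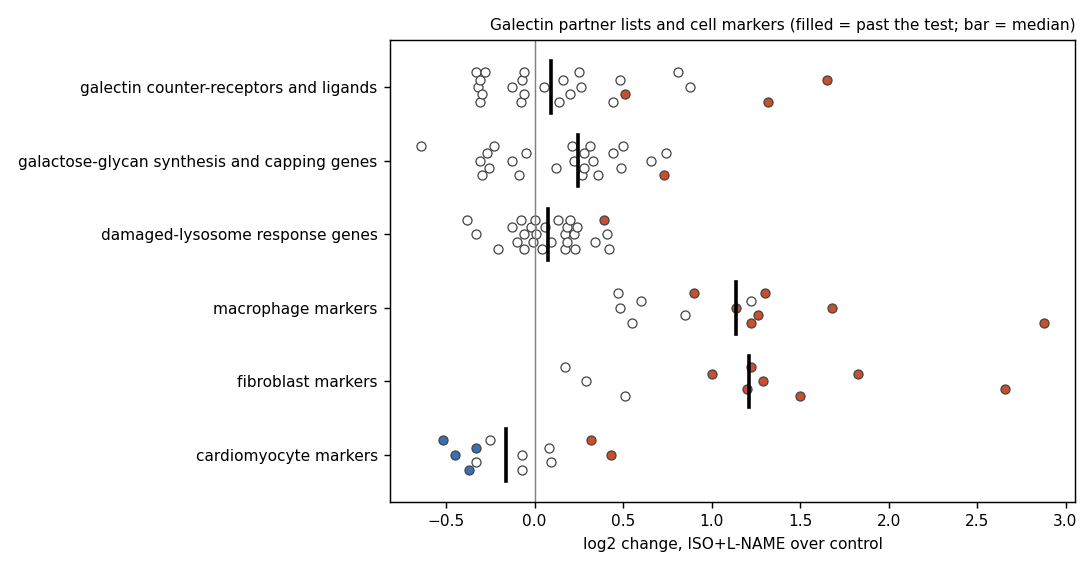
Log2 difference of each tested gene in 3 lists of galectin partners and 3 lists of cell markers, with genes past an edgeR adjusted p of 0.05 filled orange (higher) or blue (lower) and a bar at each median. The partner lists have medians of 0.09, 0.24 and 0.07, and the macrophage and fibroblast markers 1.14 and 1.21. Cd44 and Fn1 are the highest of their list, at 1.65 and 1.32, above Vwf at 0.88 and Pdpn at 0.81, which did not pass.

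Many macrophage and fibroblast marker messages were higher in treated hearts, as Lgals3 was. Of 16 macrophage markers 13 were tested, 7 rose, 0 fell (0 lower also at an unadjusted p under 0.05, by DESeq2 and by limma-voom) and 6 did not pass, with none at 0; the background was 3.41% higher, and 11 were higher with total counts alone. Lyz2, lysozyme, rose by 1.22 ± 0.14, C1qb, of complement C1q, by 1.14 ± 0.17 and the protease gene Ctss by 1.68 ± 0.29 (edgeR adjusted p = 1.04e-05, 0.000213 and 0.000692). Ms4a7, a macrophage membrane protein gene, was counted 0, 0 and 4 times in control libraries against 16, 11 and 14 after treatment, and rose by 2.88 ± 0.66 (0.00961). That call was lost without control 1 or control 2 (edgeR adjusted p = 0.075 and 0.057), and without control 3, which held all its control counts, the fitted value was 6.65. The summed macrophage level was 190 to 244 CPM in controls and 407 to 477 in treated hearts. In a list of recruited monocyte and lipid-handling macrophage markers 4 of 12 were tested and 1 rose, Ms4a6c by 3.07 ± 0.47 (edgeR adjusted p = 0.000199). The other 3 tested did not pass, Cd63 at 0.33, Cd9 at -0.02 and Fabp5 at -0.19, and the median of those tested was 0.15. The 8 too low to test all had higher means in treated hearts, the most abundant being Ccr2 at 1.39 and then 4.18 CPM. Without the filter the median of all 12 was 1.76 and 2 were called higher, at counts too low to fix the sizes. The list's sum was 186 to 224 and then 243 to 261 CPM, and most of it came from Cd63, at means of 137 and 172. Of 12 fibroblast markers 10 were tested, 7 rose and 0 fell (background 3.41% higher), and 5 rose with the robust fit. Those 7 were Col1a1, Col1a2, Col3a1, Lum, Postn, Mfap5 and Pi16. Dpt at 0.51, Dcn at 0.29 and Pdgfra at 0.17 did not pass. Tcf21 and Fap were too low to test, and their means went from 0.961 to 0.683 and from 2.42 to 1.0 CPM. The list's sums were 554 to 851 CPM in controls and 1100 to 1570 in treated hearts. Of 6 neutrophil markers, S100a8, a calprotectin subunit gene, was the 1 tested and rose by 2.76 ± 0.56 (edgeR adjusted p = 0.00365). It was counted 1, 4 and 1 times in control libraries and 19, 10 and 26 times in treated ones. No marker of this list was tested with mitochondrial genes left out or at a mean of at least 5 CPM. Mpo was at 0 in all libraries, and the list's sum was 1.37 to 3.00 CPM in controls and 8.26 to 21.4 in treated hearts. Ms4a7, Ms4a6c and S100a8, like Lgals3, entered the fit only through their treated counts, so their calls were favoured in advance. Cd68, among the 7 macrophage markers called, was also low in controls, at a mean of 3.36 CPM against 8.21 in treated hearts. What part these cell types had in the Lgals3 difference was not tested. In whole tissue, more cells of a type and more RNA per cell cannot be told apart.

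The counts of Lgals3 were also set against those of cell markers in the same library, as a description that uses the counts on which the gene was picked. There were 1.01, 0.526 and 0.988 Lgals3 counts per 100 macrophage marker counts without treatment and 4.60, 3.86 and 3.21 with it, 4.62 times as many by the means. Per 100 fibroblast marker counts there were 0.299, 0.181 and 0.283 and then 1.39, 1.43 and 1.03. Neither ratio overlapped between the groups. Lgals9 and Lgals3bp were lower in treated hearts on this measure, at 5.30 ± 0.879 and then 2.66 ± 1.16, and at 7.23 ± 0.396 and then 4.63 ± 0.444 counts per 100 macrophage marker counts (SD, n = 3). Against 10 endothelial markers Lgals1 stood at 26.8 ± 2.54 and 26.9 ± 0.979 counts per 100, and against the fibroblast markers it was lower, at 21.0 ± 4.83 and 11.1 ± 1.87 (SD, n = 3). The lower ratios of Lgals9, Lgals3bp and Lgals1 follow from the macrophage and fibroblast marker sums, which were higher in every treated heart. In CPM none of these 3 genes was called lower. Any gene level in CPM would be lower per such marker count, so no fall per cell is read from them.

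Markers of gut-type epithelium, where Lgals4 is best known, were near absent. Of 12 listed, 8 had 0 counts in all libraries, among them Vil1, Cdh17 and Cdx2. The list summed to at most 1.50 CPM in any heart. Cardiomyocyte markers, by contrast, were somewhat lower in treated hearts, at 62900 to 66400 and then 55900 to 60500 CPM in sum, but overlapped when scaled by total counts (53600 to 62200 and then 61300 to 65400). By gene, 4 of 12 were lower and 2 higher (background 2.68% and 3.41%), and the median log2 difference was -0.16, which turned to 0.15, with 0 lower and 5 higher, under scaling by total counts. The number lower was 2 on leaving out ISO+L-NAME 1, control 1 or the third treated heart. The number higher was 0 without control 1, control 2 or the second treated heart, and 1 without control 3 or ISO+L-NAME 3. Per 10000 cardiomyocyte marker counts there were 3.75, 4.22 and 4.78 Lgals4 counts in control libraries and 2.38, 1.36 and 0.756 in treated ones. Per 100 endothelial marker counts the means were 4.99 ± 0.537 and 1.59 ± 0.768 (SD, n = 3). Which cells carried it was not tested.

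**Figure D5:**
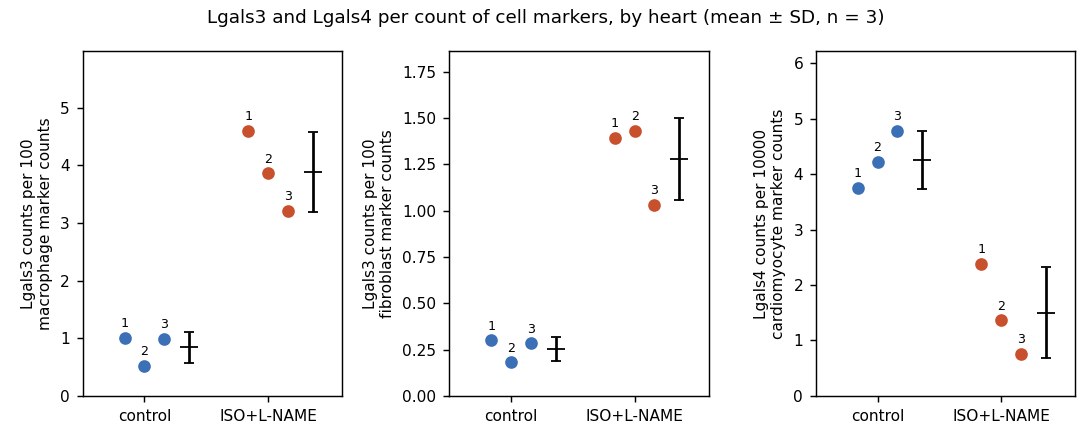
Lgals3 counts per 100 macrophage and per 100 fibroblast marker counts, and Lgals4 counts per 10000 cardiomyocyte marker counts, in each heart, with the mean ± SD (n = 3); these ratios do not depend on library scaling. Lgals3 stood at 3.21 to 4.60 per 100 macrophage counts in treated hearts against at most 1.01 in controls, and Lgals4 at 0.756 to 2.38 per 10000 cardiomyocyte counts against 3.75 to 4.78.

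The genes whose profiles lay nearest those of Lgals3 and Lgals4 were found by the root mean square difference of centred log2 CPM over the 6 libraries, a distance that the group difference dominates. Nearest to Lgals3 were Col14a1, a collagen of fibrils (0.30), Cilp, a cartilage and scar matrix protein gene (0.37), Ccl8, a monocyte chemokine (0.37), and Sox9, a transcription factor of matrix-making cells (0.39). Their own log2 differences were 2.33, 3.26, 4.66 and 2.16. Ccl8 had 1 control count in all and 43 treated counts, so its fitted value is imprecise. Nearest to Lgals4 were Sbk3, a kinase gene (0.21), Ppp1r16b, a regulatory subunit gene of protein phosphatase 1 (0.28), Lgr6, a receptor for R-spondins (0.28), and Mdga1 (0.30). Their log2 differences were -1.93, -1.68, -1.58 and -1.77. Cilp and Ccl8 entered the fit only through their treated counts, and Sbk3 and Ppp1r16b only through their control counts. All of these genes were selected for resembling genes picked on the same contrast and carry no test.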

How the data were processed

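Heart RNA was extracted with Trizol and turned into QuantSeq forward libraries, per the labels' protocols, a method that reads the 3′ ends of polyadenylated messages. The submitters' processing notes name bcl2fastq and GRCm39; no source here names the aligner, counter or annotation release, or says whether strand or molecular identifiers were used. The authors deposited raw counts for each gene and, beside them, a scaled signal whose header says CPM. Each deposited signal column was proportional to its count column, with sums from 789185 to 1060280, so it gave only alternative library sizes.

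The filter was filterByExpr, with a minimum count of 10 and a minimum total of 15. TMM factors ran from 0.857 to 1.15. The test was the quasi-likelihood F test of edgeR 4.0.16 (R 4.3.3), with group as its single factor and Benjamini-Hochberg adjustment over 8531 genes at 0.05; the SE was taken from F and the log2 change. The procedure was tested on simulated counts drawn with the means and spread estimated here. That run cannot show how well the model describes these hearts. No replicate pair looked like a duplicate (chi-square per degree of freedom 2.10 to 3.42). Alternatives changed the scaling (RLE, total counts, the authors' library sizes), the filter (none, or at least 5 CPM on average), the tool (robust edgeR, DESeq2 1.42.0, voom in limma 3.58.1) or the input (no mitochondrial genes, each library omitted in turn), or added a block for the replicate number.

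The members and gene lists were chosen with earlier results of these data known. Named from each partner list were up to 4 genes past the threshold in each direction plus Lamp1, Lamp2, Itgb1, Cd44, Mgat5, St6gal1, Trem2 and Mertk, from the macrophage, monocyte and gut lists up to 3, and the 4 genes nearest in profile to Lgals3 and to Lgals4. Havcr2, Pdcd6ip, Chmp4b, Cd63, Cd9, Fabp5, Ms4a7 and S100a8 were named outside this rule, after their values were seen. Markers of smooth muscle, lymphocytes, fat and red cells were also listed, and their summed CPM overlapped between groups. Of the 7 smooth muscle and pericyte markers tested, 1 was called higher and 1 lower (background 3.41% and 2.68%). Of these 7, 6 differed downward, and their median log2 difference was -0.30.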

Additional observations from a re-analysis of the deposited data

How the results depend on the processing

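Lgals3 stayed higher and Lgals4 lower in treated hearts under each of the 16 alternatives, from 2.83 to 3.43 and from -2.12 to -1.33 on the log2 scale. Scaling by total counts alone gave 1479 passing genes, with 95.1% higher where TMM had 56.0%; Lgals1 came to 0.27, Lgals3bp to 0.63 and Lgals8 to -0.05, and 1 further galectin gene, 10 counter-receptors, 6 glycan enzymes and 8 damaged-lysosome genes were higher. DESeq2 called 335 genes. With 1 library left out the number of genes passing ran from 301 to 494, Lgals9 from -0.39 to 0.14, the damaged-lysosome genes higher from 0 to 1 and the glycan enzymes lower from 0 to 1. The glycan enzymes lower numbered 1 without a filter and 1 with mitochondrial genes left out. The cause of these shifts was not tested.

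The replicate numbers were not taken to pair the hearts: deviations of same-numbered libraries correlated at 0.061, -0.028 and -0.014, and only control 1 of the controls correlated best with its own number. With the replicate block 560 genes passed, Lgals3 stood at 3.12 and Lgals4 at -1.66, and the partner lists had the numbers of calls given above. Depth limits the low genes most: 12 counts over the controls carry the Lgals3 baseline.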

Other observations

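St3gal4, a sialyltransferase that caps galactose chains, did not pass the count filter and was picked out after its values were seen. Its counts were 16, 11 and 9 in control libraries and 5, 6 and 3 in treated ones. Without a filter its log2 difference was -1.70 (edgeR adjusted p = 0.00975), and with mitochondrial genes left out -1.71 (0.0197). Of the fits that left out 1 library, those without control 3 and without ISO+L-NAME 2 called it lower (-1.88 and -1.97, adjusted p = 0.0268 and 0.0438).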
